A study of Mus musculus with 23 samples.

Results

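The genes described here are 7 markers of pericytes, the contractile cells that wrap capillaries: *Notch3*, *Rgs5*, *Pdgfrb*, *Cspg4*, *Mcam*, *Kcnj8* and *Abcc9*. They were chosen by symbol from the 18512 symbols in the count files, and all 7 were present and had enough counts to be tested among 12195 genes. RNA-seq counts were available from the head of the pancreas of 23 C57BL/6 mice of 6 to 8 weeks: 8 uninjured mice at baseline (BL, 4 female and 4 male), 8 at day 7 (d7, 4 and 4) and 7 at day 14 (d14, 3 and 4). The mice of day 7 and day 14 had received caerulein, a cholecystokinin analogue that injures acinar cells, at 50 µg/kg per injection, in 8 hourly intraperitoneal injections on each of 2 consecutive days, and the baseline mice are given as non-injured. The comparisons ask how much of the transcript profile of the injured gland differed from baseline 7 and 14 days later. The tissue was whole and not sorted by cell type, so fewer cells of a type and less RNA per cell cannot be told apart.

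Pericytes share a basement membrane with the endothelium and are recruited to vessels by PDGF-B, which endothelial cells release and which acts on the receptor tyrosine kinase encoded by *Pdgfrb*. *Notch3* encodes the Notch receptor of mural cells (pericytes and vascular smooth muscle), which is activated by Jagged ligands on endothelium and signals through the DNA-binding protein RBPJ. *Rgs5* encodes a GTPase-activating protein that dampens G protein signalling, *Cspg4* the NG2 proteoglycan and *Mcam* the adhesion molecule CD146. *Kcnj8* and *Abcc9* encode the Kir6.1 pore and the SUR2 regulatory subunit of the vascular ATP-sensitive potassium (KATP) channel. None of these genes is restricted to pericytes: smooth muscle carries several of them, *Mcam* is also endothelial, and *Pdgfrb* is also a gene of fibroblasts and stellate cells.

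*Kcnj8* and *Abcc9* are neighbours on the minus strand of mouse chromosome 6 (GRCm38), 16247 bases apart with 0 annotated genes between them. The promoters of this pair and of *Notch3*, the gene that changed at day 7, are shown from RefSeq (GRCm38.p6), each as 300 bases on the strand of its gene, most of them before the annotated start. Capitals mark the GC box GGGCGG and the RBPJ core TGGGAA on either strand, which do not overlap each other here. The windows are chr17:32166841-32167140 for *Notch3*, chr6:142571565-142571864 for *Kcnj8* and chr6:142702225-142702524 for *Abcc9*.
Notch3: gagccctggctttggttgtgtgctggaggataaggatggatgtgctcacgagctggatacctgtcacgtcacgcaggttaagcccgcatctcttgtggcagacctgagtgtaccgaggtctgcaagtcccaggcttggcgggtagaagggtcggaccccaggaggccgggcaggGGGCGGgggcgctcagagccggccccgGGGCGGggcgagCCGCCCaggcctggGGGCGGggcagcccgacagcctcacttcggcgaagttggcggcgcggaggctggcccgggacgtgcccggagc
Kcnj8: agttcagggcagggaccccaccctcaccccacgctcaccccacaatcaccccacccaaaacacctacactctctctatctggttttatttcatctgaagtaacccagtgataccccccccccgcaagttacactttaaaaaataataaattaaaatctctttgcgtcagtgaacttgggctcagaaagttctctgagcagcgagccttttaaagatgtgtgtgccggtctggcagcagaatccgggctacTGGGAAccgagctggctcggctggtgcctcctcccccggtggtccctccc
Abcc9: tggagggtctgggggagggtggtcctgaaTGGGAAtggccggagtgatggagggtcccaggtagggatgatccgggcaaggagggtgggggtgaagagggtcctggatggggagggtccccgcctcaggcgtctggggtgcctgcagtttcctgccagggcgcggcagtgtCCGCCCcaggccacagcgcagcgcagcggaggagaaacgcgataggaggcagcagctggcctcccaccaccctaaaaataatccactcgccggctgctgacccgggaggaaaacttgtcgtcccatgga
The *Notch3* window held 4 GC boxes and was 70% G and C, against a median of 52.7% over 32851 promoters of the table. The *Abcc9* window held 1 GC box and 1 RBPJ core, and the *Kcnj8* window held 0 GC boxes and 1 RBPJ core, which lies at its annotated start. Of all promoters, 35.7% held the GC box and 25.6% the RBPJ core, so that either match is common. The 2 channel genes, though neighbours, did not share a GC-rich start: the windows were 65.7% (*Abcc9*) and 53.3% (*Kcnj8*) G and C.

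The total count per mouse was 7059890 to 9567446, and the members together took only 193 to 697 counts of it. The 20 most abundant genes took 66.4 to 71.2% of the counts in baseline mice, 55.3 to 62.8% on day 7 and 63.9 to 66.2% on day 14. Levels are therefore given as CPM (counts scaled to a common library size) with TMM factors, which allow for such differences in makeup. Scaled by total counts instead, the median gene was 0.47 higher at day 7 than at baseline, 0.22 higher at day 14 and 0.25 lower at day 14 than at day 7 on the log2 scale. Within every time point a few mice stood apart in markers of other cells. The summed CPM of 10 B and T lymphocyte genes was 149 in mouse 5 (baseline), 268 in mouse 10 and 154 in mouse 15 (day 7) and 158 in mouse 21 (day 14), and at most 53.1 in every other mouse. Mice 5, 10 and 21 also had the highest summed CPM of their time point for the endothelial, adipocyte and macrophage lists. For vascular smooth muscle genes the highest were mouse 5 (baseline), 15 (day 7) and 19 (day 14), and for fibroblast and stellate cell genes mice 4, 14 and 19. Mice 5, 10, 15 and 21 lay above the median of their time point in 4 of 4 cases for *Notch3*, *Mcam*, *Kcnj8* and *Abcc9*, in 3 for *Cspg4*, in 2 for *Pdgfrb* and in 1 for *Rgs5*. What these mice share beyond their marker levels was not tested, and each comparison is given with and without them.

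*Notch3* was the member that was differentially expressed at day 7, and it was lower there. Its CPM at baseline had a lowest value of 3.13, a median of 4.89 and a highest value of 9.03, in the 8 mice. At day 7 the lowest value was 1.67, the median 2.99 and the highest 4.73, and at day 14 these were 3.56, 3.93 and 7.15. The ranges overlapped, but all 8 day 7 mice lay below the baseline median and 4 of them lay below every baseline mouse. The mean CPM of the 8 baseline mice was 5.30 ± 1.79 (SD). It was 3.04 ± 1.10 (SD) in the 8 mice of day 7, and 4.55 ± 1.30 (SD) in the 7 mice of day 14. Against baseline, the log2 fold change at day 7 was -0.79 (standard error 0.22, 95% interval -1.24 to -0.34), with an adjusted p of 0.0124 in edgeR's quasi-likelihood test. A DEG (differentially expressed gene) was one with an adjusted p of at most 0.05, by the Benjamini-Hochberg method over all genes tested, and a fold change of at least 1.5. Over all genes, 5.13% were DEGs at day 7 and 1.28% were DEGs that were lower, against 1 of the 7 members, a share that rests on 1 gene. Without the 4 mice above, the value for *Notch3* was -0.86 (adjusted p = 0.00302, edgeR). Under total count scaling it was -0.32 (adjusted p = 0.255, edgeR), still lower by 0.80 than the median gene of that scaling. *Notch3* (chromosome 17:32120820-32166852, minus strand) overlaps exons of the antisense gene *Gm17276*, which has no row in the count files, and the strand setting of the counting is not given in the sources used here.

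**Figure D1:**
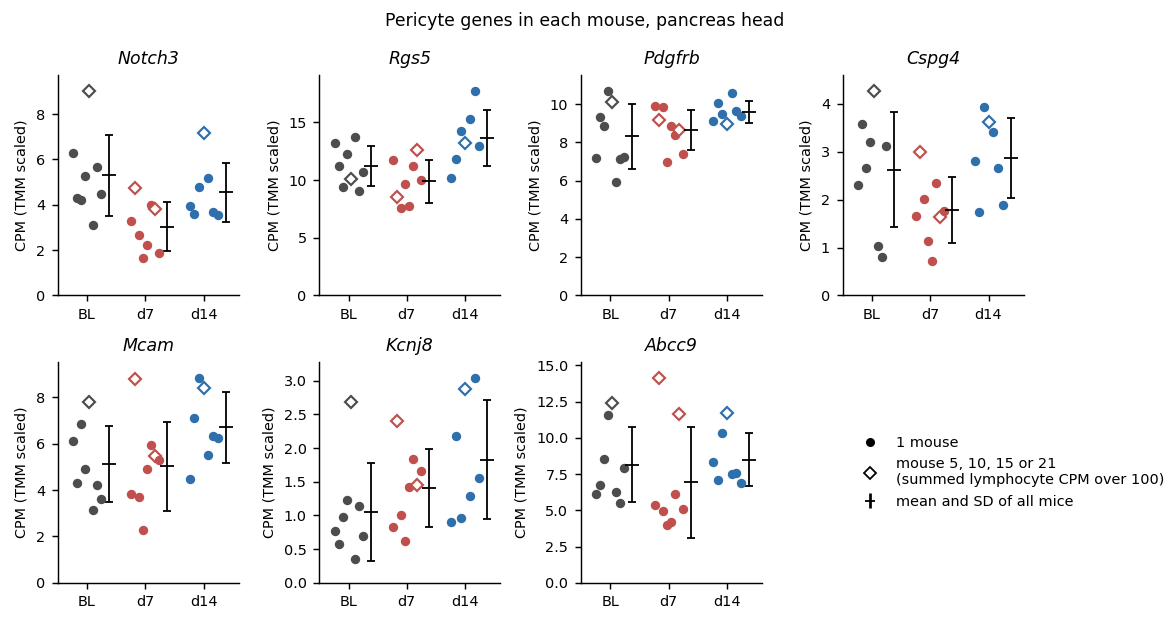
CPM (TMM scaled) of the 7 pericyte genes in each mouse at baseline (BL), day 7 (d7) and day 14 (d14). Each point is 1 mouse, open diamonds are mice 5, 10, 15 and 21, and bars are the mean and SD of all mice of a time point. *Notch3* lies lowest at day 7, between 1.67 and 4.73, and the open diamonds are at the top of the *Abcc9* panel.

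*Abcc9*, the SUR2 subunit, behaved differently with and without the 4 mice rich in lymphocyte transcripts. At baseline its CPM ran from 5.52 through a median of 7.34 to 12.4, at day 7 from 3.96 through 5.21 to 14.1, and at day 14 from 6.91 through 7.60 to 11.7. Of the 8 day 7 mice, 5 lay below every baseline mouse and 1 above every baseline mouse. That highest mouse was mouse 10 and the next was mouse 15 with 11.7, while the remaining 6 mice lay between 3.96 and 6.10. Over all mice the log2 fold change at day 7 was -0.23, and 0.25 under total count scaling (95% interval of the former -0.78 to 0.33, adjusted p = 0.592, edgeR). Without mice 5, 10, 15 and 21 it was -0.62 (standard error 0.15, adjusted p = 0.00617, edgeR), which makes *Abcc9* a DEG beside *Notch3* among 4.63% of all genes in that fit. Day 14 was then higher than day 7 by 0.68 (adjusted p = 0.0168, edgeR), where 0.36% of all genes were DEGs, against 0.28 (adjusted p = 0.689) over all mice. The 4 mice were left out after their marker levels had been seen. In each time point they had higher *Abcc9* than every other mouse. *Abcc9* (chromosome 6:142587862-142702315, minus strand) overlaps exons of the antisense gene *5330439B14Rik*.

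The remaining 5 members were not DEGs at day 7. *Cspg4*, the NG2 proteoglycan, had the largest difference among them. Its CPM had a median of 2.89 at baseline (range 0.811 to 4.27), 1.71 at day 7 (range 0.714 to 2.98) and 2.81 at day 14 (range 1.75 to 3.94). The ranges overlapped widely, with 1 day 7 mouse below every baseline mouse, and the log2 fold change was -0.55 (95% interval -1.13 to 0.023, adjusted p = 0.176, edgeR). *Rgs5*, the most abundant member, had a median CPM of 10.9 at baseline (range 9.09 to 13.7), 9.86 at day 7 (range 7.60 to 12.6) and 13.2 at day 14 (range 10.2 to 17.7). Its log2 fold change at day 7 was -0.18, and 0.28 under total count scaling (95% interval of the former -0.42 to 0.062, adjusted p = 0.306, edgeR). Below the lowest baseline mouse were 3 of the 8 mice. *Pdgfrb*, the PDGF-B receptor, had a median CPM of 8.05 at baseline (range 5.91 to 10.7), 8.77 at day 7 (range 6.98 to 9.89) and 9.47 at day 14 (range 8.96 to 10.6). Its log2 fold change of 0.048 at day 7 had a 95% interval of -0.16 to 0.26 (adjusted p = 0.784, edgeR), and no day 7 mouse lay outside the range of baseline. By total counts it was at 0.49 (adjusted p = 0.00211, edgeR), under the fold of a DEG and 0.015 above the median gene. *Mcam*, the adhesion molecule, had a median CPM of 4.61 at baseline (range 3.13 to 7.81), 5.09 at day 7 (range 2.29 to 8.81) and 6.33 at day 14 (range 4.49 to 8.83). Its difference at day 7 was -0.027, and 0.45 under total count scaling (95% interval of the former -0.49 to 0.43, adjusted p = 0.951, edgeR), and the mice spread to both sides of the baseline range. *Kcnj8*, the pore subunit, had the fewest counts, 2 to 33 per mouse, with a median CPM of 0.874 at baseline (range 0.347 to 2.68), 1.44 at day 7 (range 0.625 to 2.40) and 1.56 at day 14 (range 0.898 to 3.04). Its log2 fold change of 0.40 at day 7 was not past the threshold (95% interval -0.28 to 1.07, adjusted p = 0.432, edgeR). Its highest baseline value, in mouse 5, lay above all day 7 mice. Without mice 5, 10, 15 and 21 the day 7 values of *Cspg4*, *Rgs5*, *Pdgfrb*, *Mcam* and *Kcnj8* were -0.56, -0.26, 0.070, -0.16 and 0.45, and none was a DEG (edgeR). These genes lie on chromosomes 9 (*Cspg4*, 56865033-56899870), 1 (*Rgs5*, 169655501-169695813), 18 (*Pdgfrb*, 61045150-61085061), 9 (*Mcam*, 44134469-44142727) and 6 (*Kcnj8*, 142564837-142571614) of GRCm38. *Mcam* overlaps exons of the antisense gene *Gm10687*.

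As a list, 5 of the 7 members were lower and 2 higher at day 7. Under total count scaling 2 were lower and 5 higher, where 406 of all 12195 genes were lower. With TMM factors the median of the members was -0.18 on the log2 scale, whereas 45.8% of all genes tested were lower and their median was 0.025. At an unadjusted p under 0.05 the list had 1 member, *Notch3*, at day 7, where 31.6% of all genes passed. The members still lower under total counts were *Notch3* and *Cspg4*. Total counts also made *Kcnj8* the member that was a DEG, at 0.85 (adjusted p = 0.0389, edgeR), or 0.37 above the median gene. Of all genes 30.3% were DEGs under that scaling, so that 1 of 7 is below the background share. *Rgs5*, *Mcam* and *Abcc9*, lower with TMM factors, became 0.28, 0.45 and 0.25 under total counts, which is 0.20, 0.029 and 0.22 below the median gene.

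**Figure D2:**
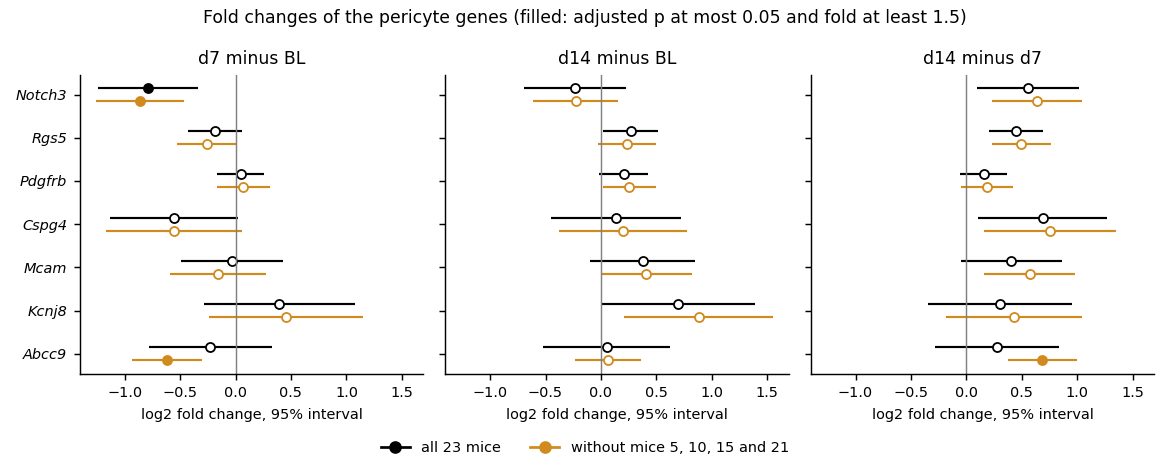
Log2 fold changes of the 7 genes with 95% intervals for day 7 against baseline, day 14 against baseline and day 14 against day 7, over all 23 mice (black) and without mice 5, 10, 15 and 21 (orange). Filled points are DEGs: *Notch3* at day 7 in both fits (-0.79 and -0.86) and *Abcc9* without the 4 mice (-0.62 at day 7 and 0.68 between the days).

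At day 14 none of the 7 members was a DEG against baseline by edgeR or by DESeq2, where 0.754% of all genes were DEGs in edgeR. At an unadjusted p under 0.05, edgeR had 2 members and DESeq2 had 0, and in edgeR 12.8% of all genes passed. Both comparisons use the same baseline mice, so that they are not independent. *Notch3* was the one member below baseline at day 14, with a log2 fold change of -0.24 (95% interval -0.69 to 0.22, adjusted p = 0.732, edgeR), and 5 of 7 mice were below the baseline median. The other 6 members had positive values, with a median over the list of 0.21, where 54.1% of all genes were positive and the median was 0.016. *Kcnj8* had the largest, 0.70 (95% interval 0.00060 to 1.39, unadjusted p = 0.0498, adjusted p = 0.391, edgeR), and all 7 mice were above its baseline median. *Rgs5* had the smallest p, at 0.27 (95% interval 0.018 to 0.52, unadjusted p = 0.0368, adjusted p = 0.343, edgeR), with 3 of 7 mice above every baseline mouse. The values of *Mcam*, *Pdgfrb*, *Cspg4* and *Abcc9* were 0.38, 0.21, 0.13 and 0.052, and each interval included 0. With total counts *Rgs5* was at 0.47 (adjusted p = 0.0152, edgeR) and *Pdgfrb* at 0.40 (adjusted p = 0.0377, edgeR), under the fold of a DEG and 0.25 and 0.18 above the median gene. Without the 4 mice the interval of *Pdgfrb* was 0.015 to 0.49 (adjusted p = 0.302, edgeR). No member was a DEG without them, and *Kcnj8* was at 0.88 (adjusted p = 0.177, edgeR).

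Tested directly, all 7 members were higher on the later day. Among the other lists, 16 of 19 endothelial genes (median 0.42) and 13 of 16 acinar genes (median 0.32) were also higher. All 13 fibroblast and stellate cell genes were lower, as were 13 of 21 further pericyte-enriched genes. Under total count scaling 5 of the 7 members were higher, where 878 of all 12195 genes were. With TMM factors the median difference of the members was 0.40 on the log2 scale, where 48.1% of all genes were higher and their median was -0.0078. None was a DEG in edgeR or in DESeq2, although *Rgs5* passed the adjusted p alone in DESeq2, and 0.385% of all genes were DEGs in edgeR. Both tools had 3 members at an unadjusted p under 0.05, where 13.9% of all genes passed in edgeR. *Rgs5* came closest, at 0.45 (95% interval 0.21 to 0.69, adjusted p = 0.0562, edgeR): its mean CPM went from 9.89 ± 1.86 (SD, 8 mice) to 13.6 ± 2.44 (SD, 7 mice). *Cspg4* was at 0.69 (95% interval 0.10 to 1.27, adjusted p = 0.264, edgeR) and *Notch3* at 0.55 (95% interval 0.091 to 1.01, adjusted p = 0.256, edgeR). The smallest of the 7, *Pdgfrb*, was at 0.16. Under total count scaling *Pdgfrb* and *Abcc9* were at -0.093 and -0.0098, still 0.16 and 0.24 above the median gene. Without the 4 mice *Abcc9* was a DEG, as given above, and *Rgs5* was at 0.50 (adjusted p = 0.0523, edgeR).

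A ratio of 2 genes within a mouse does not depend on how libraries are scaled, except through the prior count of 2. The log2 ratios are differences of log2 CPM with that prior, which draws ratios of low counts toward 0. The log2 ratio of *Notch3* to *Kcnj8* was 1.67 to 2.71 in the baseline mice and 0.16 to 1.74 on day 7, where 7 of 8 mice lay below the lowest of baseline. The difference was -1.199 (exact two-sided permutation p = 3.11e-04, adjusted p = 0.0131 over the 42 ratios and days tested). The ratio of *Notch3* to *Pdgfrb* was -1.08 to -0.16 in the baseline mice and -1.93 to -0.92 on day 7. Of these 8 mice, 6 lay below the lowest of baseline, and the difference was -0.84 (exact permutation p = 0.00202, adjusted p = 0.0283). The ratio of *Notch3* to *Mcam* was -0.68 to 0.41 and -1.39 to -0.20, 3 of 8 mice lay below the lowest of baseline, and the difference was -0.72 (exact permutation p = 0.00186, adjusted p = 0.0283). Every one of the 3 pairs that passed among the 21 at day 7 thus contained *Notch3*. *Notch3* relative to *Abcc9*, *Cspg4* and *Rgs5* did not pass, and its means were -1.06, 0.71 and -1.68 at day 7 against -0.60, 1.05 and -1.10 at baseline. At day 14, 0 of 21 pairs passed by this exact permutation test (smallest adjusted p = 0.0653), and 2 had an unadjusted p under 0.05. When 1 mouse was left out at a time, *Notch3* to *Kcnj8* kept its call in 23 of 23 fits, while *Notch3* to *Mcam* and *Notch3* to *Pdgfrb* each lost theirs in 9 (adjusted p up to 0.0566, exact permutation test). The number of day 7 pairs that passed was then 1 to 5. It was lowest, at 1, without baseline mice 1, 4, 6 or 8 or day 7 mice 11, 12, 13 or 16, and highest, at 5, without baseline mice 5 or 7. At day 14, 1 pair passed without baseline mouse 3, baseline mouse 5 or day 14 mouse 19. Without the 4 mice rich in lymphocyte transcripts 5 pairs passed at day 7. These were *Notch3* to *Pdgfrb* (-0.93) and to *Kcnj8* (-1.30), *Pdgfrb* to *Abcc9* (0.66), *Mcam* to *Kcnj8* (-0.61) and *Kcnj8* to *Abcc9* (1.03), whereas *Notch3* to *Mcam* had an adjusted p of 0.0598 (exact permutation test).

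**Figure D3:**
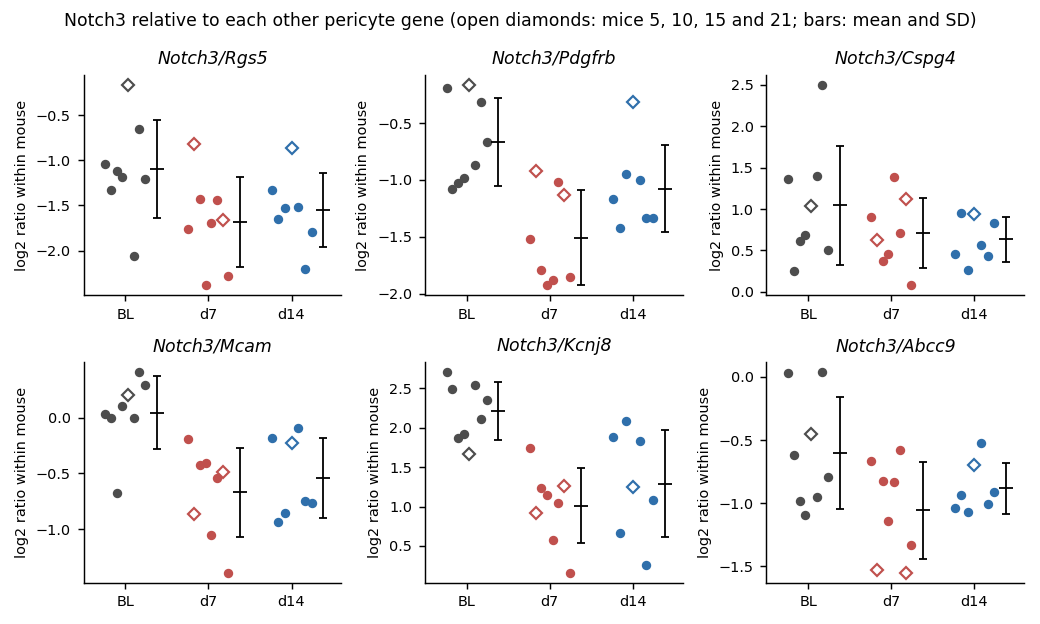
Log2 ratio of *Notch3* to each of the other 6 genes within each mouse at baseline, day 7 and day 14, with the mean and SD, where open diamonds are mice 5, 10, 15 and 21. For *Kcnj8* 7 of 8 day 7 mice lie below the lowest baseline mouse, at 1.67.

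Levels can be compared between genes only per length of exon. At baseline *Rgs5* stood highest, with 2.47 ± 0.38 CPM per kilobase (SD, n = 8), at the 54th percentile of tested genes, followed by *Mcam* (1.53 ± 0.49) and *Pdgfrb* (1.52 ± 0.31). These were followed by *Abcc9* (0.972 ± 0.309), *Notch3* (0.655 ± 0.222), *Kcnj8* (0.412 ± 0.283) and *Cspg4* (0.220 ± 0.101). *Rgs5* was above *Mcam* beyond their SDs at baseline, in 7 of 8 mice, whereas no other neighbours in the baseline order did. *Notch3* was above *Cspg4* beyond their SDs on both later days, as were *Rgs5* above *Mcam* and *Pdgfrb* above *Abcc9* at day 14. *Mcam* and *Pdgfrb* could not be ranked, the former being higher in 3 of 8 mice. *Abcc9*, the regulatory subunit, had a higher mean than its partner *Kcnj8* in every time point. By merged exon length the order moved in 2 places. *Notch3* ranked above *Kcnj8* in 8 of 8 baseline mice, and *Kcnj8* above *Notch3* in 7 of 8 day 7 mice and 4 of 7 day 14 mice. *Pdgfrb* and *Mcam* changed places at day 7, with *Pdgfrb* higher in 4 of 8 mice. Divided by the longest transcript they did not, with means of 1.68 for *Mcam* and 1.59 for *Pdgfrb* at day 7. The annotated length also matters for *Cspg4*: divided by its longest transcript instead of all its exons, its baseline level was 0.323.

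**Figure D4:**
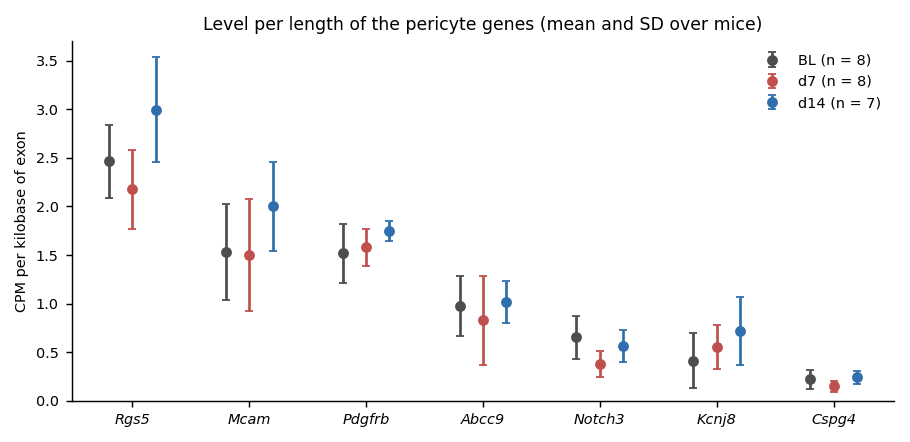
Level of each gene in CPM per kilobase of merged exon at baseline, day 7 and day 14, as mean and SD over mice, ordered by baseline. *Rgs5* stands highest in all time points and *Cspg4* lowest, and *Notch3* lies above *Kcnj8* at baseline and below it at day 7 and day 14.

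The spread between mice of 1 time point also differed between members. *Pdgfrb* had a coefficient of variation of 5.85% at day 14, below the 10.8% that counting alone gives for its mean count, and 12.2% at day 7, against 10.5% from counting. *Rgs5* varied by 15.3% at baseline, against 11.4% from counting. *Abcc9* varied by 54.9% at day 7, where counting gives 11.4%, and *Notch3* by 33.9% at baseline and 36.2% at day 7, where counting gives 16.4% and 17.4%. *Kcnj8* varied by 68.6% at baseline, where counting gives 36.2%.

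Across the 23 mice, with each time point centred on its mean, 18 of the 21 pairs of members correlated positively in log2 CPM, with a median Pearson r of 0.44. Of these, 8 had an adjusted permutation p of at most 0.05 by Pearson's r and 5 by Spearman's rho, over the 42 relations computed. *Mcam* and *Kcnj8* were closest, with r = 0.72 (adjusted permutation p = 0.00221), rho = 0.67 (adjusted permutation p = 0.0133), and r = 0.62 without the 2 mice farthest from the median of *Mcam*. Within baseline, day 7 and day 14 the r of this pair was 0.76, 0.97 and 0.36. *Notch3* and *Abcc9* had r = 0.69 (adjusted permutation p = 0.00563), rho = 0.60 (adjusted permutation p = 0.0272), and r = 0.60 without 2 mice, with 0.46, 0.81 and 0.82 within the 3 time points. The neighbouring channel genes *Kcnj8* and *Abcc9* had r = 0.51 (adjusted permutation p = 0.0333), rho = 0.43 (adjusted permutation p = 0.0961), r = 0.54 without 2 mice, and 0.70, 0.65 and 0.029 within them. *Rgs5* correlated with none of the others past the threshold: its r with them lay between -0.13 and 0.11, although its counts were the highest of the list. These r values of *Rgs5* depended on the scaling. Under total count scaling its r with *Notch3*, *Cspg4* and *Abcc9* was 0.365, 0.38 and 0.45. With *Pdgfrb*, *Mcam* and *Kcnj8* it was 0.24, 0.28 and 0.18, of the opposite sign.

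Without the 4 mice rich in lymphocyte transcripts most of these values were smaller. In the other 19 mice the median r of the pairs was 0.30, and 19 of 21 were positive. *Notch3* and *Abcc9* then had r = 0.36, *Kcnj8* and *Abcc9* 0.16 and *Mcam* and *Kcnj8* 0.58, whereas *Cspg4* and *Abcc9* had 0.72 (0.65 over all mice). Without the 4 mice the median r with the endothelial mean went from 0.60 to 0.37, with the smooth muscle mean from 0.46 to 0.35 and with the fibroblast mean from 0.28 to 0.26. *Abcc9* and 6 vascular smooth muscle genes had r = 0.80 over all mice (adjusted permutation p = 0.00221, rho = 0.64 with adjusted permutation p = 0.0133, r = 0.77 without 2 mice, and 0.59, 0.94 and 0.78 within time points) and 0.48 over the 19. *Notch3* and 19 endothelial genes had r = 0.74 (adjusted permutation p = 0.00221, rho = 0.58 with adjusted permutation p = 0.0272, r = 0.68 without 2 mice, and 0.81, 0.63 and 0.85 within time points) and 0.38. Over all mice, 5 of the 7 members had an adjusted permutation p of at most 0.05 with the endothelial mean, 4 with the smooth muscle mean and 0 with the mean of 13 fibroblast and stellate cell genes. By unadjusted permutation p under 0.05, *Pdgfrb* and *Mcam* passed for that last list (r = 0.54 and 0.44).

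**Figure D5:**
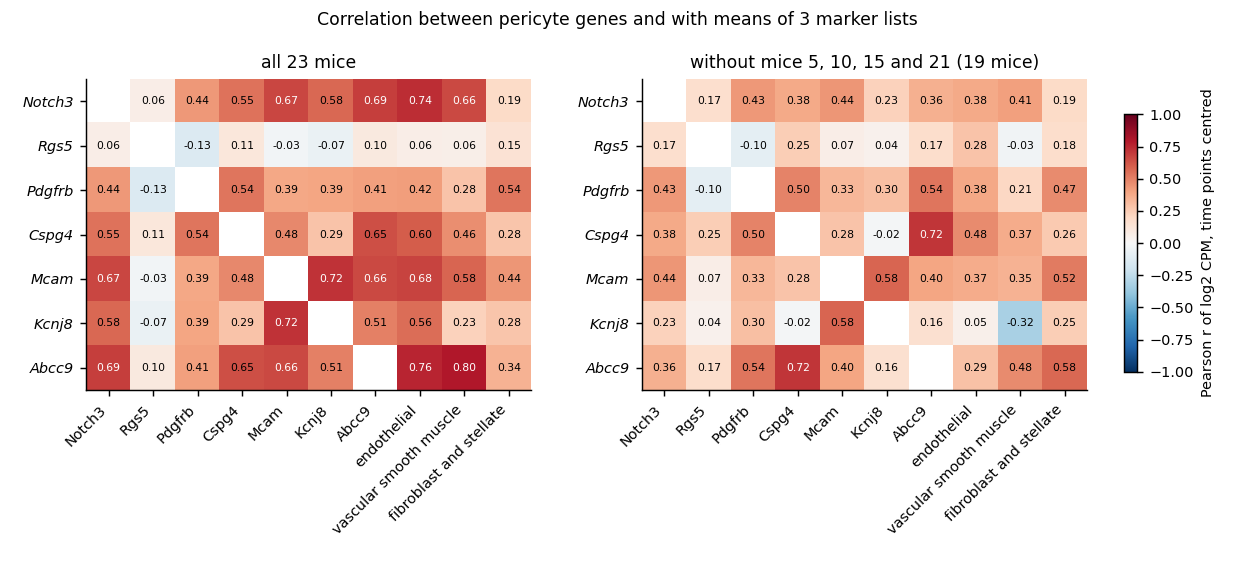
Pearson r of log2 CPM, with time points centred, between the 7 pericyte genes and with the mean of 3 marker lists, over all 23 mice and over the 19 left without mice 5, 10, 15 and 21. *Rgs5* is near 0 throughout the left panel, from -0.13 to 0.15, and most values of *Notch3*, *Kcnj8* and *Abcc9* are smaller in the right panel.

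Among the 12194 other tested genes, those whose centred pattern was most like each member over the 23 mice were as follows. For *Notch3* they were *Jam3* (r = 0.91), *Rcsd1* and *Mycbp2* (0.83 each), and *Jam3*, a junctional adhesion molecule, was also first over the 19 mice (0.85). For *Pdgfrb* they were *Ltbp4* (0.79), a binding protein of latent TGF-beta, *Rgl1* (0.77) and *Afap1* (0.76), and *Ltbp4* was again first over the 19 mice (0.82). For *Abcc9* they were *Cap1*, *Ets1* (0.90 each) and *Prkch* (0.89), which fell to ranks 25, 31 and 128 over the 19 mice. For *Mcam* they were *Lyve1* (0.81), a receptor of lymphatic endothelium, *Cxcl12* (0.78) and *Ldoc1l* (0.77). For *Cspg4* they were *Gm20605* (0.81), *Phc2* (0.80) and *BC017643* (0.78), and for *Kcnj8* *Zmiz2* (0.79), *Csrnp1* (0.78) and *Adam12* (0.77). *Rgs5* had the weakest neighbours: *E130311K13Rik* (0.68), *Abcg2* (0.67) and *Zfp941* (0.64). These values describe the mice sequenced and are selected as the highest of many, with no test.

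The sexes did not differ in a member past the threshold. Over all time points 0 of 7 members were DEGs between males and females by edgeR or DESeq2, and 0 had an unadjusted p under 0.05 in either, where 0.23% of all genes were DEGs and 8.74% passed without adjustment in edgeR. The largest difference was that of *Kcnj8*, 0.50 higher in males (95% interval -0.048 to 1.06, adjusted p = 0.628, edgeR). The change from baseline was not found to differ by sex in any member: the interaction had an adjusted p of 1 for all 7 in edgeR, and 0 had an unadjusted p under 0.05 by edgeR or DESeq2. In edgeR 0% of all genes passed the adjusted threshold of the interaction and 4.29% the unadjusted one, and DESeq2 called 18 genes, none of them a member. The fall of *Notch3* at day 7 was -0.67 in females and -0.91 in males, and the interval of the difference, -1.17 to 0.71, is wide.

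Other genes of pericytes and of the pathways around the members changed in both directions. Of 30 further pericyte-enriched symbols in the files 21 were tested. At day 7, 4 of the 21 were DEGs, all higher, where 5.13% of all genes were DEGs and 469 of 12195 were higher DEGs. The 4 were *Aspn*, a matrix proteoglycan (1.09, adjusted p = 0.00193), *Pde5a*, the cGMP phosphodiesterase (0.88, adjusted p = 0.00169), *Rgs4*, a relative of *Rgs5* (0.85, adjusted p = 0.00934), and *Angpt1*, the Tie2 ligand angiopoietin-1 (0.62, adjusted p = 0.00619, all edgeR). Past the adjusted p but under the fold of a DEG, and named after their values were seen, were 3 genes that were lower and *Enpep*, which was higher. The lower genes were *Vtn*, the adhesion protein vitronectin (-0.50, adjusted p = 0.00878), *Lamc3*, a laminin subunit (-0.58, adjusted p = 0.0401), and *P2ry14*, a receptor of UDP-sugars (-0.36, adjusted p = 0.00893, all edgeR). *Enpep* was at 0.51 (adjusted p = 0.0145, edgeR), with 5 of 8 day 7 mice above every baseline mouse. Of the 8 day 7 mice, 6 lay below the lowest of baseline for *Vtn*. Scaled by total counts the 3 lower genes were at -0.044, -0.14 and 0.082 and none passed, while *Enpep* was a DEG (0.98, adjusted p = 5.54e-05, edgeR). With DESeq2 size factors *Lamc3* was a DEG (-0.59, adjusted p = 0.0340, edgeR). *Angpt1* had CPM of 11.6 to 24.2 in the baseline mice and 20.1 to 37.2 on day 7, where 6 of 8 mice exceeded the highest of baseline. The median of the list was 0.36 at day 7 and 0.22 at day 14, with 13 and 16 of 21 higher. At day 14 none of the 21 was a DEG against baseline (edgeR; 7 at an unadjusted p under 0.05). Between the days 8 of the 21 were higher and 13 lower, with a median of -0.030, where 48.1% of all genes were higher. The 1 DEG among them, where 0.385% of all genes were DEGs, was *Trpc6*, a cation channel subunit. It was higher at day 14 by 1.31 (adjusted p = 0.0386, edgeR), from a median CPM of 0.537 to 1.39. Its counts were low, 3 to 11 per mouse at day 7 and 6 to 17 at day 14. Under total count scaling 18 of the 21 were higher at day 7, where 11789 of all 12195 genes were. Of the 21, 10 were DEGs, all higher, where 30.3% of all genes were DEGs. *Aspn*, *Pde5a*, *Rgs4* and *Angpt1* were among the 10. On day 14 that scaling gave 20 higher, where 11101 of all 12195 genes were, and 5 DEGs, where 3.67% of all genes were DEGs. Between the days it gave 4 higher and 17 lower, where 11317 of all 12195 genes were lower. Of these, 1 was a higher DEG and 2 were lower DEGs, where 459 of all genes were lower DEGs.

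Of the PDGF genes other than *Pdgfrb*, 5 were tested. *Pdgfra*, the PDGF receptor of fibroblasts, rose from a CPM of 14.7 to 22.2 in the baseline mice to 27.8 to 42.2 on day 7, so that all 8 mice lay above every baseline mouse (log2 fold change 0.88, adjusted p = 3.35e-07, edgeR). Its mean CPM on day 14 was 28.2 ± 2.59 (SD, 7 mice), and all 7 lay above every baseline mouse (0.64, adjusted p = 3.65e-04, edgeR). The ligand gene *Pdgfc* rose by 0.94 at day 7 (adjusted p = 0.00350, edgeR). *Pdgfb*, the ligand of the receptor that *Pdgfrb* encodes, was not a DEG and is named outside the naming rule given below. It was at -0.35 at day 7 (adjusted p = 0.065, edgeR), with 3 of 8 mice below every baseline mouse. Under total count scaling all 5 genes were higher at day 7, where 11789 of all 12195 genes were. That scaling gave 2 DEGs among the 5, where 30.3% of all genes were DEGs.

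Of 18 other genes of the Notch pathway 13 had enough counts. On day 7, 6 of them were above and 7 below baseline, and 1 was a DEG, lower, where 1.28% of all genes were lower DEGs. Under total count scaling 12 were above, where 11789 of 12195 genes were. That scaling gave 4 DEGs, all higher, where 30.3% of all genes were DEGs, and scaling without the 20 most abundant genes gave 0 (edgeR). Past the adjusted p but under the fold, and named after their values were seen, were *Rbpj* and *Maml1*. *Rbpj* was at 0.29 (adjusted p = 0.00450), with 7 of 8 mice above every baseline mouse, and *Maml1* at -0.35 (adjusted p = 0.0247, both edgeR). By total counts they were at 0.74 and 0.092. *Notch4*, the Notch receptor of endothelium, fell by 0.64 on the log2 scale (adjusted p = 0.00643, edgeR), from a mean CPM of 3.45 ± 0.776 (SD, 8 mice) to 2.23 ± 0.389 (SD, 8 mice), and 6 of 8 mice lay below the lowest of baseline. At day 14 it was at -0.10 and none of the 13 was a DEG in edgeR. At an unadjusted p under 0.05 was 1 of them, where 12.8% of all genes passed. Under total count scaling *Notch4* was at -0.20 at day 7 and not a DEG (adjusted p = 0.318, edgeR). Of the other KATP subunits, *Abcc8* was tested and was at 0.57 at day 7 (adjusted p = 0.17, edgeR), and *Kcnj11* had 1 to 12 counts per mouse and was not tested. Under total count scaling *Abcc8* was a DEG at day 7, at 1.02, where 30.3% of all genes were DEGs.

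The markers of the cells around pericytes moved in both directions. Of 19 endothelial genes 15 were lower at day 7, where 45.8% of all genes were. Under total count scaling 6 of the 19 were lower, where 406 of all 12195 genes were. With TMM factors the median of the 19 was -0.32 and 3 were DEGs, all lower, where 1.28% of all genes were lower DEGs. On day 14 the endothelial median was 0.030, with 0 DEGs in edgeR and 2 genes at an unadjusted p under 0.05, where 12.8% of all genes passed. The summed CPM of the 19 was 176 to 270 in the baseline mice, 136 to 215 on day 7 and 189 to 238 on day 14. All 13 fibroblast and stellate cell genes were higher at day 7 (median 0.85) and 11 were DEGs, where 5.13% of all genes were DEGs. The summed CPM of the 13 was 375 to 740 in the baseline mice and 731 to 1323 on day 7. Of 12 vascular smooth muscle genes 6 were tested, and 0 were DEGs or had an unadjusted p under 0.05 at either day (edgeR). Total count scaling gave 2 DEGs, higher, at day 7 (median 1.07), where 30.3% of all genes were DEGs. The summed CPM of the smooth muscle list reached 64.6 in the highest baseline mouse and 136 in the highest mouse of day 7. No gene of these lists was at 0 in all mice. With total counts at day 7 the endothelial list had 1 DEG, higher, and 0 lower, with a median of 0.13, which is 0.34 below that of all genes. The part of these cells in the values of *Notch3* and *Abcc9* was not tested.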

How the data were processed

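Stranded libraries of ribosome-depleted RNA (pancreas head) were sequenced as paired reads in 23 mice, and 1 mouse numbered 20 is not analysed here. The authors examined reads with FastQC, trimmed them with Trim Galore and cutadapt, aligned them to mm10 with STAR (2.5.2a per the labels) counted with featureCounts and deposited raw counts of uniquely mapped fragments per gene symbol, with no normalization. Total counts were 7059890 to 9567446; the floor of 3 counts was 0.314 to 0.425 CPM, and covers counting error only.

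The counts were tested with edgeR 4.0.16 (R 4.3.3): filterByExpr, TMM, robust quasi-likelihood fits over all mice with sex as covariate, and Benjamini-Hochberg adjustment over all 12195 genes. Log2 CPM used a prior count of 2. Within-mouse log2 ratios of pairs of members had exact two-sided permutation tests, and correlations 100000 permutations within time points. The standard error restates the test. The members and lists were chosen with earlier results of these data known. All 7 members were named; of the pathway lists, genes that were DEGs in a time contrast, or tested ones where none was; and the 3 genes most like each member. Positions and exon lengths are from GENCODE vM21, which matched 17721 symbols. Libraries are from separate mice and none were identical. Each alternative replaced 1 choice, namely the tool (DESeq2 1.42.0), scaling, filter, covariates including the mapping rate, mice left out, prior count and gene length. The edgeR and correlation steps were tested on simulated data.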

Additional observations from a re-analysis of the deposited data

Results flagged for a closer look

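The *Kcnj8* CPM of baseline mouse 5 was 2.68, against 1.23 in the next highest baseline mouse, and lay apart from the other 7 by Dixon's criterion. It was 1 of 21 combinations of gene and time point examined, and chance flags about 1 in 20 groups. Mouse 5 also had the highest baseline CPM of 5 of the 7 members and the highest summed lymphocyte CPM at baseline, 149.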

How the results depend on the processing

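The number of DEGs among the members stayed at 1 for day 7 and 0 for the other contrasts under every other tool, scaling, filter and covariate tried and with each mouse left out, although under total count scaling the day 7 DEG was *Kcnj8* in place of *Notch3* and 30.3% of all genes were DEGs. For *Notch3* at day 7, 32 of 33 alternatives kept the call, over values from -1.27 (mapping rate as a covariate, adjusted p = 0.0495, edgeR) to -0.32 (total count scaling). Without mice 5, 10, 15 and 21, a choice made after seeing the data, 2 members were DEGs at day 7 and 1 between the days, and 5 ratios passed at day 7 and 1 at day 14. With 1 mouse left out, 1 to 5 ratios passed at day 7 and 0 to 1 at day 14. No paired analysis was possible because each mouse has a number of its own and belongs to 1 time point.

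None of the following values was past a threshold before its sign changed. No fold change, ratio or rho was past one afterwards. The correlations under total counts or without the 4 mice had no test. Values that changed sign were near 0 in most cases. Fold changes did so for *Rgs5* (0.28), *Mcam* (0.45) and *Abcc9* (0.25) at day 7 and *Pdgfrb* (-0.093) and *Abcc9* (-0.0098) between the days under total counts; for *Mcam* at day 7 without the 20 most abundant genes (0.051); for *Pdgfrb* (-0.051) and *Kcnj8* (-0.11) at day 7 and *Cspg4* (-0.043) and *Abcc9* (-0.48) at day 14 with the mapping rate; and for the sex difference of *Mcam* with no covariate (0.010) and of *Notch3* without the 4 mice (-0.019). Ratios did so for *Pdgfrb*/*Cspg4* at day 14 with a prior of 0.5 (-0.019) and, without the 4 mice, for *Cspg4*/*Abcc9* at day 7 (0.12) and *Rgs5*/*Pdgfrb* (-0.026) and *Rgs5*/*Cspg4* (-0.017) at day 14. Correlations did so for *Rgs5* with *Pdgfrb*, *Mcam* and *Kcnj8* under total counts (0.24, 0.28 and 0.18), for rho of *Rgs5* with *Cspg4* (-0.0089) and smooth muscle (-0.058), and, without the 4 mice, for *Rgs5* with *Mcam* (0.065), *Kcnj8* (0.042) and smooth muscle (-0.034), *Cspg4* with *Kcnj8* (-0.017) and *Kcnj8* with smooth muscle (-0.32).

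With 1 mouse left out, ranges spanned 0 for *Mcam* at day 7 (-0.24 to 0.11), *Pdgfrb* at day 7 (-0.0055 to 0.11), *Cspg4* (-0.011 to 0.32) and *Abcc9* (-0.050 to 0.19) at day 14, the sex differences of *Mcam* (-0.10 to 0.14) and *Abcc9* (-0.17 to 0.15), and the ratios *Cspg4*/*Abcc9* (-0.24 to 0.01) and *Rgs5*/*Mcam* (-0.27 to 0.023) at day 7 and *Pdgfrb*/*Cspg4* (-0.11 to 0.16), *Rgs5*/*Cspg4* (-0.082 to 0.24), *Rgs5*/*Mcam* (-0.24 to 0.0021) and *Rgs5*/*Pdgfrb* (-0.017 to 0.15) at day 14. The cause of these changes was not tested. Depth limits *Kcnj8* and *Cspg4* most, and with at least 10 counts required in every mouse only 5 members were tested.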
